A study of Mus musculus with 4 samples.

Results

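The 8 genes examined belong to the extracellular matrix and encode no collagen. They are Hspg2 and Nid1 of the basement membrane, Fn1, Fbn1, Dcn, Lum, Thbs4 and the matrix protease gene Mmp2. They were taken by gene symbol from the 1000 genes of the deposited table, and make up 8 of the 1000. The table covers tibialis anterior, a leg muscle, of Dmd Dup2 mice. In this model exon 2 of Dmd, which encodes dystrophin, is duplicated, and both groups have that genotype. One group was an untreated control and the other was treated with scAAV9.U7-ACCA, an AAV9 vector whose U7 small nuclear RNA is made to skip the exon. Each group gave 1 mRNA library and 1 library of ribosome footprints, the mRNA fragments that ribosomes protect from digestion. The labels give no number of animals, age or sex for any of the 4 libraries, and do not say whether muscles were pooled.

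The extracellular matrix of muscle has a basement membrane that wraps each fibre and an interstitial matrix between the fibres, made largely by fibroblasts. The basement membrane is a laminin network and a type IV collagen network, joined by nidogen and perlecan. The interstitial matrix holds collagen fibrils with their surface proteoglycans, fibronectin, and fibrillin microfibrils, and it is known to accumulate as fibrosis in dystrophic muscle.

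Over the listed genes the mRNA libraries held 125236 (untreated) and 4248818 (treated) reads, and the footprint libraries 3349015 and 1664122. Of these reads the 8 genes took 0.263% (95% exact binomial interval 0.235 to 0.293) without and 0.304% (0.299 to 0.309) with treatment in mRNA. In footprints they took 1.08% (1.07 to 1.09) without and 0.697% (0.684 to 0.7096) with treatment. Of 12 muscle fibre markers 11 were listed, and they held 49192, 2302395, 1228796 and 685395 reads in that order. Dmd, the gene the vector acts on, had 25 and 1959 mRNA reads and 80 and 183 footprints, untreated and treated. Scaled for library size with TMM, Dmd was 3.63-fold higher in treated mRNA (2.45 to 5.63) and 4.74-fold higher in treated footprints (3.62 to 6.24). With 1 library per group no difference below has a replicate check, no test between conditions was made, and all intervals are 95% intervals that cover counting error only. A gene is called higher or lower in the treated library when the scaled ratio was at least 1.5-fold, its interval excluded 1 and the pair of libraries held at least 50 reads.

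Against the median listed gene, the treated to untreated ratio of 7 of the 8 genes lay above it in mRNA and that of 7 of 8 below it in footprints. A library scaling moves all genes together, so it cannot alter these positions, while the sign and the call of a ratio can change with it. In mRNA 1 of 8 ratios was below 1 with TMM, where 48.3% of 996 genes were. With the constants implied by the authors' normalized columns 5 of 8 were, and there the median gene itself had a log2 ratio of −0.82. The exceptions were Fn1, which lay 0.06 log2 units below the median gene in mRNA, and Dcn, which lay 0.56 above it in footprints. With TMM scaling 5 of 8 were called higher in mRNA and 0 lower, where 31.8% of 996 genes were called higher and 24.8% lower. In footprints 6 of 8 were called lower and 0 higher, where 26.2% of 999 genes were called lower and 19.9% higher. Translation efficiency, the ratio of footprints over the ratio of mRNA, was called lower for 8 of 8 and higher for 0, where 31.9% of 995 genes were called lower and 26.0% higher. All 8 genes passed the minimum of 50 reads in both pairs. In bulk muscle, fewer cells of a type and less RNA per cell cannot be told apart.

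These counts moved with the scaling, most of all in mRNA. The count of genes higher in mRNA was 5 with DESeq2 size factors (31.1% of all genes), 3 with upper quartile scaling (20.6%), 3 in the total that leaves out the 20 most abundant genes (24.6%), 2 with the listed totals (14.9%) and 1 with the constants implied by the authors' normalized columns (11.0%). At a 2-fold threshold with TMM it was 3 (21.5%). Lower mRNA was called for 1 of 8, Fn1, with the listed totals (46.6% of all genes) and for 2, Fn1 and Lum, with the authors' constants (54.5%). The count lower in footprints was 5 with DESeq2 (25.4%) and in the total without the top 20 (24.1%), and 7 with the listed totals (27.8%), the upper quartile (30.2%) and the authors' constants (36.5%). It was 3, Fn1, Fbn1 and Nid1, at 2-fold (14.3%), and 1 gene, Dcn, was called higher without the top 20 (22.4%). Lower translation efficiency was called for 8 with DESeq2 (30.8%), for 7 with the upper quartile (23.2%) and without the top 20 (23.0%), and for 5 with the listed totals (15.8%) and the authors' constants (15.9%). With TMM it was called for 6 at 2-fold, where 222 of 995 genes were. With 5 rather than 0.5 added to each count it was called for 7, where 252 of 995 genes were. The log2 ratio of translation efficiency was below 0 for all 8 genes in each of the 6 scalings. With TMM 54.2% of 995 genes were below 0, and the median gene ran from −0.11 (TMM) to 0.50 (listed totals).

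**Figure D1:**
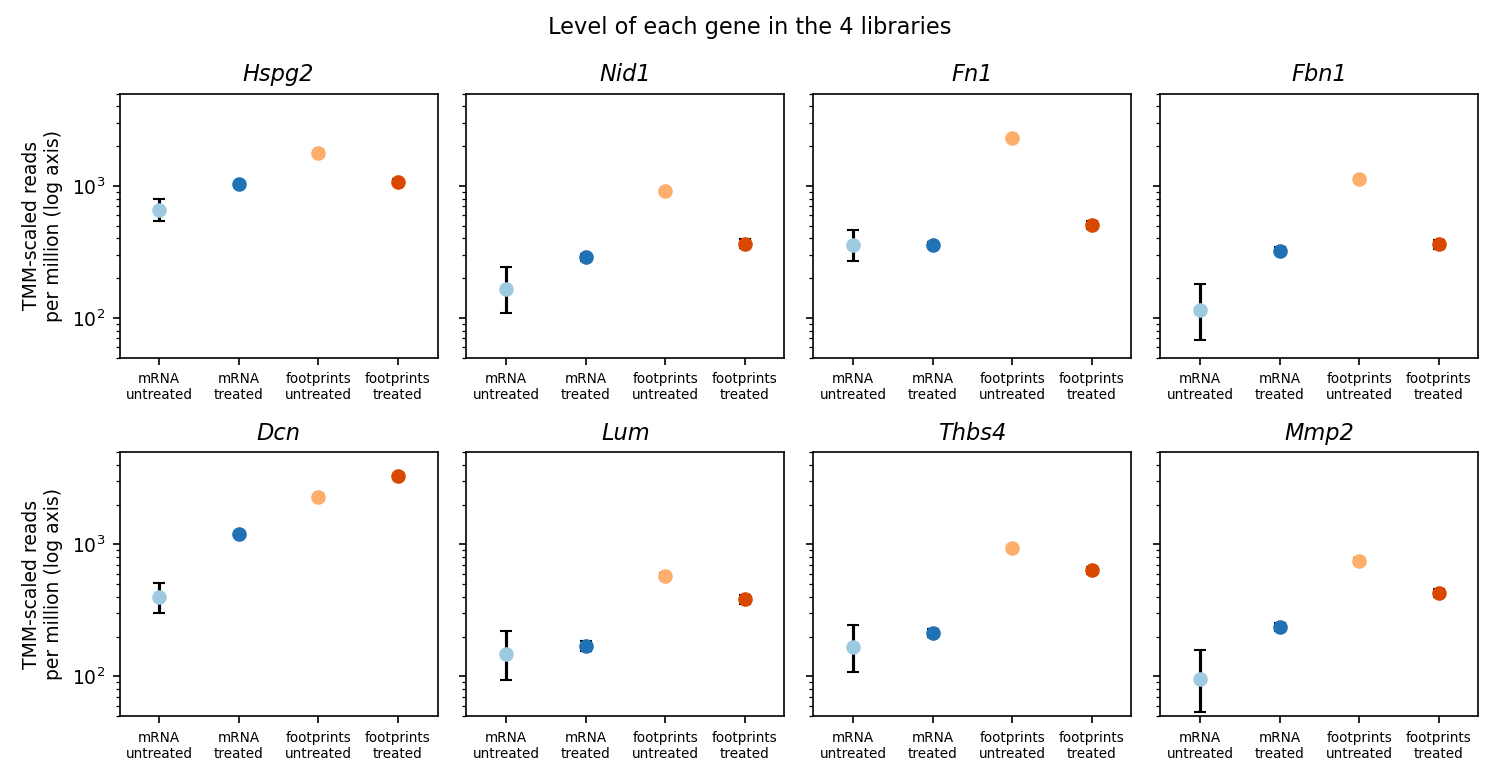
TMM-scaled CPM (log axis) of each of the 8 genes in the 4 libraries, 1 point per library, with bars for the exact 95% Poisson counting interval. Footprints were lower in the treated library for 7 genes and higher for Dcn; the bars are widest in untreated mRNA, where the genes had 15 to 103 reads.

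Hspg2 (NM_008305) encodes perlecan, a large heparan sulfate proteoglycan of the basement membrane. It had 103 reads in untreated and 3514 in treated mRNA, and 6037 and 1772 in the footprint libraries. As TMM-scaled CPM, reads scaled to a common library size, these are levels of 657, 1040.3, 1773 and 1077 in the same order. The mRNA was thus the higher in the treated library and the footprints were the lower. The ratio was 1.58-fold higher in mRNA (1.30 to 1.94) and 1.65-fold lower in footprints (1.56 to 1.74), which makes translation efficiency 2.59-fold lower (2.12 to 3.17). The mRNA call of Hspg2 was kept with DESeq2 size factors and lost in the other 4 alternatives, at ratios of 1.01 (listed totals), 1.20 (upper quartile) and 1.34 (without the top 20). With the authors' constants its mRNA log2 ratio changed sign, from 0.66 to −0.22.

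Nid1 (NM_010917) encodes nidogen-1, which links laminin to type IV collagen. It had 26 and 972 mRNA reads and 3085 and 600 footprints, untreated and treated. The scaled levels were 166 and 288 CPM in mRNA and 906 and 365 in footprints. Nid1 therefore had the same pattern of directions as Hspg2, with a lower footprint ratio. It was 1.73-fold higher in mRNA (1.18 to 2.67), 2.48-fold lower in footprints (2.27 to 2.72) and 4.23-fold lower in translation efficiency (2.84 to 6.28). The mRNA call of Nid1 was lost in the same 4 alternatives, at ratios of 1.10 (listed totals), 1.32 (upper quartile) and 1.46 (without the top 20). Its mRNA log2 ratio changed from 0.79 to −0.09 with the authors' constants. The mRNA ratios of Nid1 and Hspg2 could not be separated, at a ratio of ratios of 1.10 (0.709 to 1.69), whereas in footprints the ratio of Hspg2 was 1.51 times that of Nid1 (1.36 to 1.67).

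Promoter windows of 250 bases before the transcript start were found for 4 of the 8 genes in RefSeq's GRCm38.p6 table, namely Hspg2, Nid1, Fbn1 and Thbs4. The windows of Hspg2, Nid1 and Fbn1 are shown because their mRNA was called higher and their footprints lower under TMM. Capitals mark GGGCGG, the GC box that factors of the Sp family bind, searched on both strands with overlaps allowed.
Hspg2, chr4:137468553-137468802, plus strand: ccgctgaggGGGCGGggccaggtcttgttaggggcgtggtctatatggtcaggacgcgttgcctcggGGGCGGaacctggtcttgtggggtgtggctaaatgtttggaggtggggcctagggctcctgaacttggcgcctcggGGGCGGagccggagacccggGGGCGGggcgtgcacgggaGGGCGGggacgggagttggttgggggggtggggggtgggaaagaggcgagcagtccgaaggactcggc
Nid1, chr13:13437352-13437601, plus strand: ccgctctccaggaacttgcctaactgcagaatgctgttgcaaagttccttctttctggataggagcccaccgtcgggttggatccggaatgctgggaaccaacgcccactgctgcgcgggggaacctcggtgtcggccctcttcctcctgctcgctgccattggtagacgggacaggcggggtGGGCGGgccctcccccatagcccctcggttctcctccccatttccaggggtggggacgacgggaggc
Fbn1, chr2:125506439-125506688, minus strand: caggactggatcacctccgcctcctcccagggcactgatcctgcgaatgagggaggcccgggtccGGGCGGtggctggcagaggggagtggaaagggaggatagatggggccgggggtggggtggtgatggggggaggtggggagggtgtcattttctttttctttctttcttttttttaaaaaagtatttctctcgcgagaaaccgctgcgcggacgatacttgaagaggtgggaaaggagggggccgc
The Hspg2 window held 5 matches, that of Nid1 1 and that of Fbn1 1, while Thbs4, whose mRNA was not called, held 3. Over all 32851 windows of this length 32.7% held at least 1 match and 1.93% held 5 or more. None of the 4 windows held TATAAA (12.4% of all windows) or TGANTCA (6.75%), and CCAAT was found once, in Nid1 (33.8% of all windows held it). A match describes the letters only and shows no binding.

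Fn1 (NM_010233) encodes fibronectin, a glycoprotein that binds integrins, collagen and fibrin. It had 56 and 1203 mRNA reads and 7859 and 828 footprints, untreated and treated. The scaled mRNA levels were nearly alike, at 357 and 356 CPM, and the footprint levels were 2308 and 503. The mRNA ratio was 0.997 (0.762 to 1.33), while footprints were 4.58-fold lower in the treated library (4.27 to 4.93). Of the genes compared 1.60% had a lower footprint ratio than Fn1. Translation efficiency was 4.53-fold lower (3.43 to 5.97). Fn1 mRNA was called lower with the listed totals, at a log2 ratio of −0.66, and with the authors' constants, at −0.89.

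Fbn1 (NM_007993) encodes fibrillin-1, the main protein of the microfibrils that carry elastin and hold latent growth factor complexes. It had 18 and 1091 mRNA reads and 3804 and 591 footprints. The scaled mRNA level went from 115 in the untreated to 323 in the treated library, and the footprint level from 1117 to 359. Fbn1 was 2.81-fold higher in mRNA (1.77 to 4.76) and 3.11-fold lower in footprints (2.85 to 3.40). Its translation efficiency was 8.50-fold lower (5.33 to 13.6), the lowest of the 8 genes, and 1.21% of the genes compared were lower still. The mRNA call rests on 18 untreated reads and was lost with the authors' constants, where the log2 ratio was 0.61. That ratio of 1.53 passed the fold threshold, but its interval included 1 (0.961 to 2.58).

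Dcn and Lum encode decorin and lumican, small leucine-rich proteoglycans that coat collagen fibrils and shape their assembly. The genes are neighbours, with no other gene between them in RefSeq's GRCm38.p6 gene table. Dcn (NM_001190451) had 62 and 4040 mRNA reads and 7707 and 5424 footprints, untreated and treated. The scaled levels were 396 and 1196 CPM in mRNA and 2263 and 3297 in footprints, so both were the higher in the treated library. The mRNA ratio was 3.02-fold higher (2.35 to 3.95) and was called higher under all 6 scalings. The footprint ratio was 1.46 (1.41 to 1.51), under the fold threshold except in the total without the 20 most abundant genes, where Dcn was called higher at a log2 ratio of 0.60. For Dcn the TMM value of translation efficiency was 2.06-fold lower (1.60 to 2.65), and no call was made with the listed totals or the authors' constants, at a log2 ratio of −0.43 in both.

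Lum (NM_008524) had 23 and 574 mRNA reads and 1970 and 633 footprints. The scaled mRNA levels of 147 and 169.9 gave a ratio of 1.16 (0.764 to 1.84), which was not called. The footprint levels of 578 and 385 gave a ratio 1.503-fold lower (1.37 to 1.65), which lies at the threshold and was no longer called with DESeq2 size factors or without the 20 most abundant genes. Dcn thus differed from its neighbour Lum in both readouts. The treated to untreated ratio of Dcn was 2.61 times that of Lum in mRNA (1.61 to 4.25) and 2.19 times in footprints (1.99 to 2.41). Lum translation efficiency was 1.70-fold lower (1.12 to 2.60), a call made only with TMM and DESeq2 size factors of the 6 scalings.

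Thbs4 (NM_011582) encodes thrombospondin-4, a matricellular glycoprotein of muscle and tendon. It had 26 and 720 mRNA reads and 3172 and 1044 footprints, untreated and treated. The scaled levels were 166 and 213 in mRNA and 931 and 635 in footprints. The mRNA ratio of 1.28 (0.869 to 1.98) was not called, and the footprint ratio was 1.47-fold lower (1.37 to 1.58), just under the fold threshold. With the listed totals, the upper quartile and the authors' constants Thbs4 footprints were called lower, at log2 ratios of −0.59, −0.67 and −0.83. Translation efficiency was 1.85-fold lower (1.25 to 2.74), and was not called with the listed totals, at a log2 ratio of −0.27, or the authors' constants, at −0.28.

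Mmp2 (NM_008610) encodes gelatinase A, a secreted protease that digests denatured collagen and type IV collagen. It had 15 and 794 mRNA reads and 2567 and 705 footprints. The scaled level was 95.7 in untreated and 235 in treated mRNA, and 754 and 429 in footprints. Mmp2 was 2.46-fold higher in mRNA (1.48 to 4.41), from the fewest untreated reads of the 8 genes, and 1.76-fold lower in footprints (1.62 to 1.91). Translation efficiency was 4.18-fold lower (2.51 to 6.96). The mRNA call was lost with the listed totals, at a log2 ratio of 0.64, and with the authors' constants, at 0.41. With the listed totals the ratio of 1.56 passed the fold threshold, but its interval included 1 (0.940 to 2.80).

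Hspg2, Nid1, Fbn1 and Mmp2 were called higher in mRNA and lower in footprints at once, where 5.83% of 995 genes had this pair of calls. With DESeq2 it was the same 4 genes (5.73% of all genes). The pair of calls was left for Fbn1 and Mmp2 with the upper quartile (3.72%) or without the top 20 (4.02%), for Fbn1 alone with the listed totals (1.91%), and for 0 of the 8 with the authors' constants (1.91%).

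**Figure D2:**
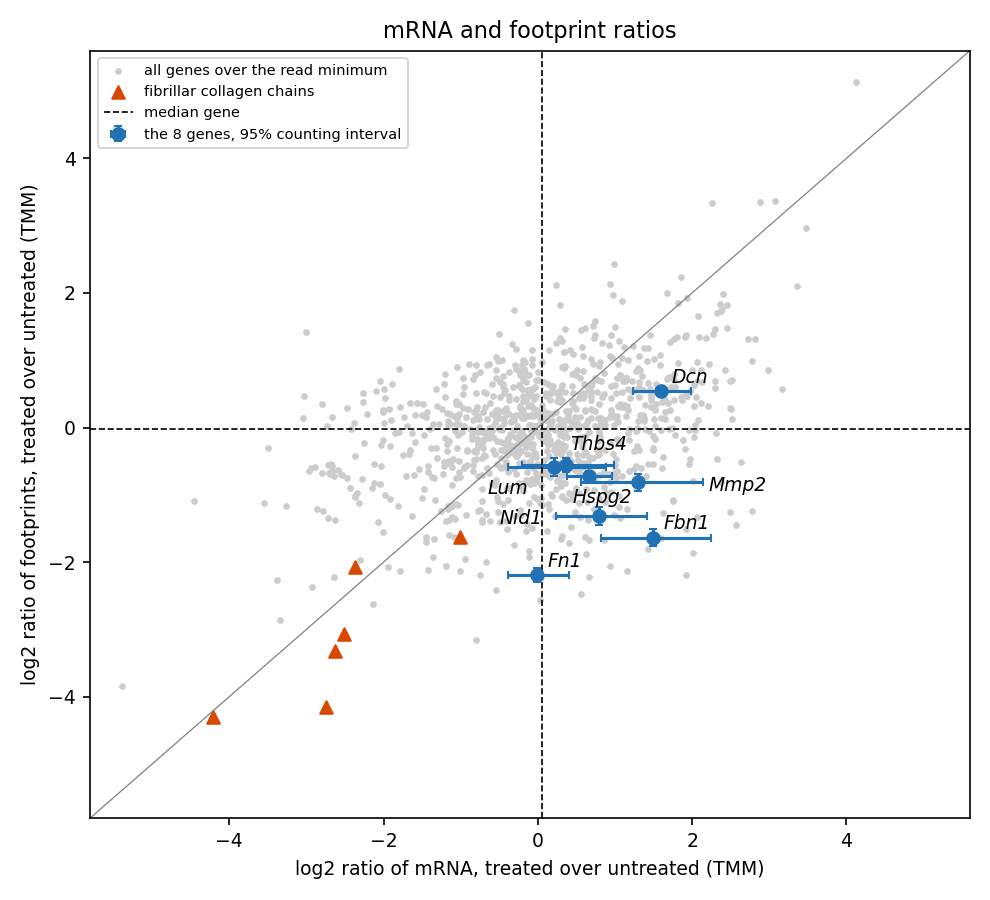
Log2 ratio of footprints against log2 ratio of mRNA, treated over untreated with TMM scaling, for all genes over the read minimum (grey), 6 fibrillar collagen chains (triangles) and the 8 genes (circles with 95% counting intervals). Dashed lines mark the median gene and the solid line equal ratios; all 8 genes lie below the solid line, and their mRNA ratios move left by 0.88 log2 units with the authors' constants.

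Differences among the 8 genes do not depend on the library scaling. In footprints 25 of the 28 pairs had ratios that differed beyond counting error, and in mRNA 14 of 28 did, with intervals not adjusted for the number of pairs. No such count was made for pairs of other genes. The 2 counts are not comparable, because the few untreated mRNA reads make the mRNA intervals wider. The widest footprint difference was between Dcn and Fn1, whose ratios differed 6.68-fold (6.17 to 7.23), and the same pair differed most in mRNA, at 3.03-fold (2.10 to 4.38). The 3 footprint pairs not separated were Hspg2 with Mmp2, at 1.07 (0.968 to 1.18), Lum with Hspg2, at 1.09 (0.987 to 1.21), and Thbs4 with Lum, at 1.02 (0.914 to 1.15).

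The make-up of the group shifted toward Dcn. Dcn took 21.3% (20.9 to 21.7) of the footprints of the 8 genes in untreated muscle and 46.8% (45.9 to 47.7) in treated muscle. Fn1 took 21.7% (21.3 to 22.1) in untreated and 7.14% (6.68 to 7.62) in treated muscle, and Fbn1 took 10.5% (10.2 to 10.8) and 5.10% (4.70 to 5.51). In mRNA the Dcn share was 18.8% (14.8 to 23.5) untreated and 31.3% (30.5 to 32.1) treated, and the Fn1 share was 17.0% (13.1 to 21.5) and 9.32% (8.82 to 9.83). The share of Lum in footprints was 5.44% (5.21 to 5.68) and 5.46% (5.05 to 5.89), a difference within counting error.

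**Figure D3:**
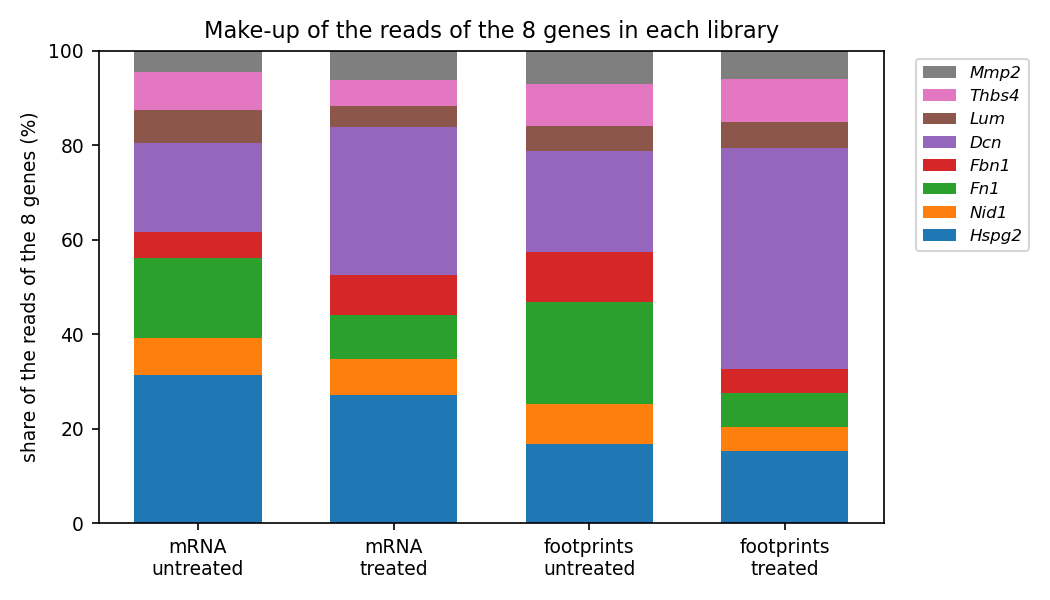
Share (%) of each gene in the summed reads of the 8 genes, 1 bar per library. The Dcn part widens from 21.3% to 46.8% between untreated and treated footprints, while the Fn1 part narrows from 21.7% to 7.14%.

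Within each condition the footprints per mRNA read were set against those of the median listed gene, a value that library scaling leaves as it is. Each of the 8 genes carried more footprints per mRNA read than the median gene in untreated muscle, from 2.67 times (2.20 to 3.28) for Hspg2 to 9.62 times (6.08 to 16.3) for Fbn1. They ranked above 93.6% to 99.8% of the other genes there. In treated muscle Hspg2 lay at 1.05 times the median gene (0.987 to 1.11), Fbn1 at 1.12 times (1.01 to 1.24) and Nid1 at 1.28 times (1.15 to 1.42). Thbs4, at 3.01 times (2.73 to 3.31), Dcn, at 2.78 times (2.67 to 2.90), and Lum, at 2.29 times (2.04 to 2.56), stayed further above it. Thbs4 had been at 5.56 times (3.78 to 8.52), Dcn at 5.66 times (4.41 to 7.39) and Lum at 3.90 times (2.59 to 6.17) in untreated muscle. High untreated values were not particular to the 8 genes. Of other matrix genes, described below, Sparc lay at 6.77 times, Fstl1 at 6.73 times and Lamc1 at 6.09 times the median gene untreated, but Col4a1 at 1.17 times. Treated, these 4 lay at 3.44, 2.52, 1.48 and 0.843 times. Footprints come from the coding part of a transcript and mRNA reads from all of it, so differences between genes in this value also carry their untranslated length.

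**Figure D4:**
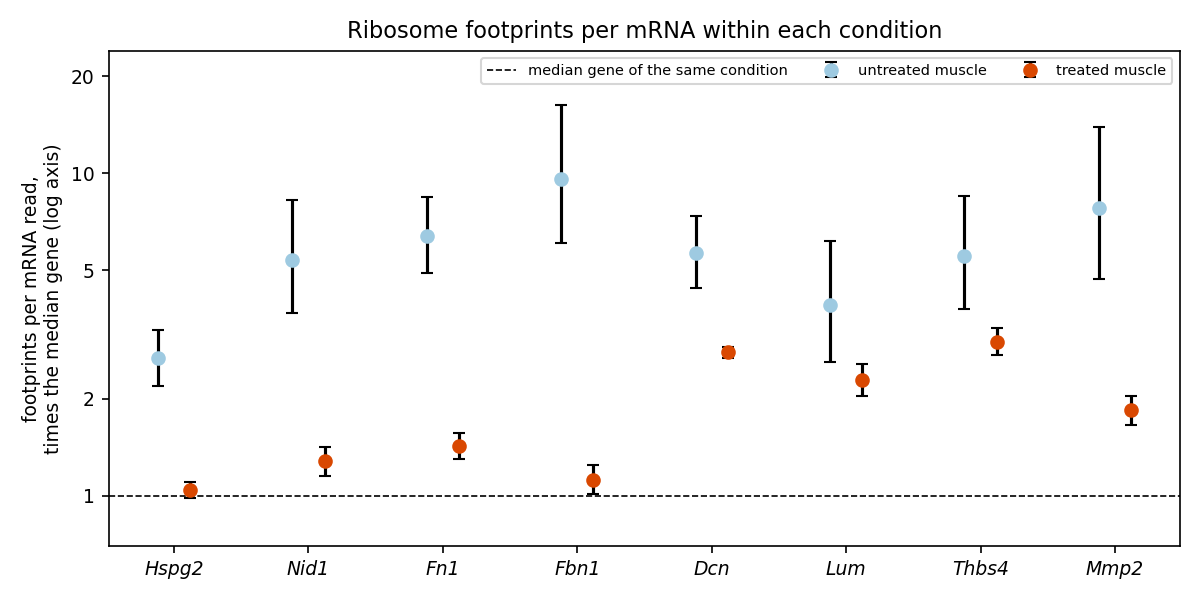
Footprints per mRNA read of each of the 8 genes, as a multiple of the median listed gene of the same condition (log axis), with exact 95% counting intervals. All 8 genes lie above the median gene in untreated muscle, from 2.67 to 9.62 times, and between 1.05 and 3.01 times in treated muscle.

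The translation efficiency and the untreated footprints per mRNA read share the untreated mRNA count, which was 15 to 103 for these genes in a table that reaches down to 14. 5 of the genes (Mmp2, Fbn1, Lum, Nid1 and Thbs4) had 15 to 26 untreated mRNA reads. The other genes in that range had median log2 ratios of 0.27 in mRNA (452 genes), −0.0024 in footprints (455 genes) and −0.12 in translation efficiency (451 genes), against 0.79, −0.81 and −2.06 for the 5. The 95 other genes with 56 to 103 untreated reads had medians of −0.24, −0.13 and 0.11, against 0.66, −0.72 and −1.37 for Fn1, Dcn and Hspg2. Over all genes compared the medians were 0.06, −0.02 and −0.11, and those of the 8 genes were 0.73, −0.77 and −1.72.

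**Figure D5:**
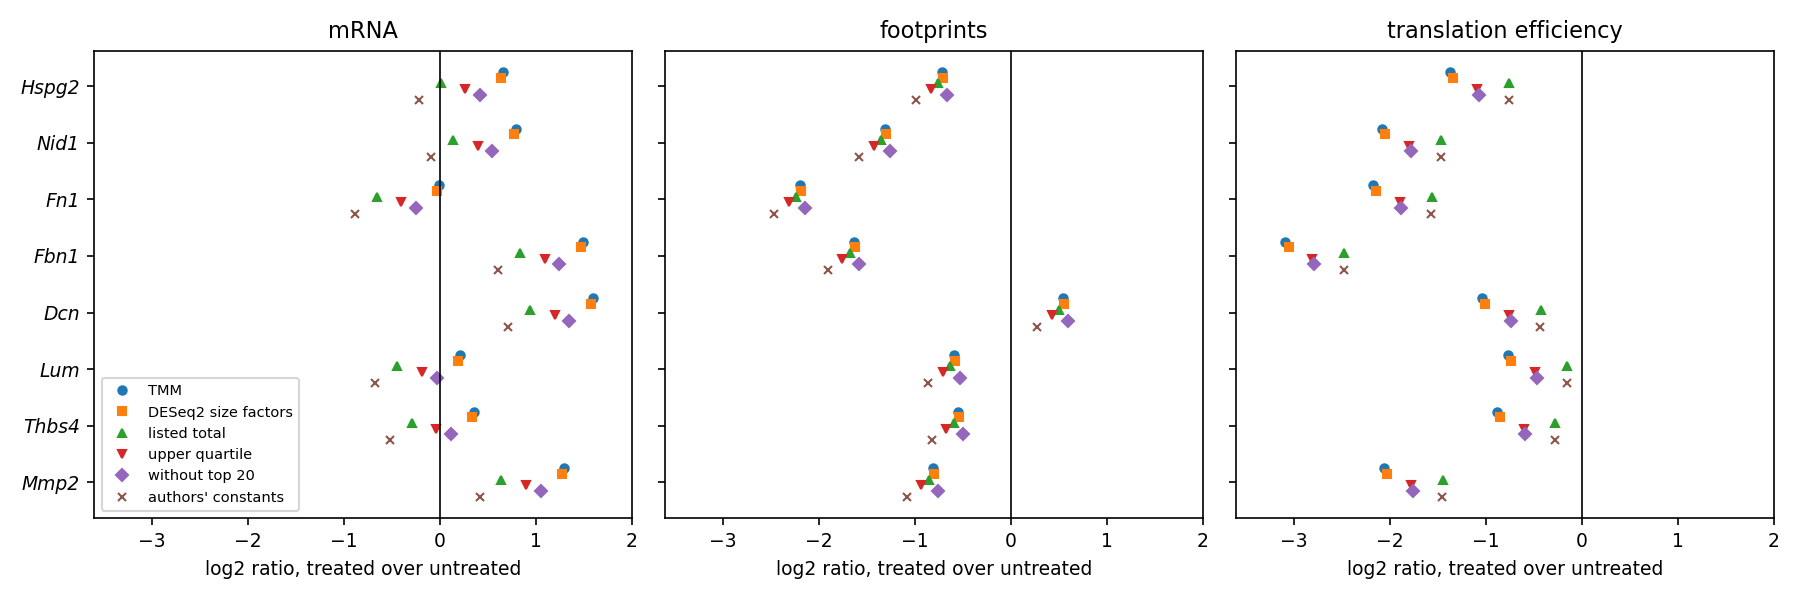
Log2 ratios, treated over untreated, of the 8 genes in mRNA, footprints and translation efficiency under 6 library scalings (symbols). In mRNA Fn1 is below 0 throughout, while Hspg2, Nid1, Lum and Thbs4 change sign with the scaling; in footprints only Dcn lies above 0, and in translation efficiency all 8 lie below 0.

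Other matrix genes came from fixed lists of 131 genes, of which 28 were in the table. Footprints were called lower for 20 of the 28 and higher for 0, with a median log2 ratio of −1.30. Among all genes compared 26.2% were called lower and 19.9% higher in footprints. In mRNA 12 were lower and 7 higher with TMM, the scaling used for all values of these genes, with a median of −0.40. The shares of all genes were 24.8% lower and 31.8% higher. Translation efficiency was lower for 19 and higher for 1, Mgp, which encodes matrix Gla protein and was named after its values were seen. Here 31.9% of all genes were lower and 26.0% higher. The counts of single lists and of cell type markers below stand beside these same shares. With the authors' constants the median gene moved by −0.88 log2 units in mRNA and 0.61 in translation efficiency, so calls near the threshold can change.

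Fibrillar collagen chains, the tensile fibres of the matrix, differed from the 8 genes in mRNA: 6 of 6 listed chains were called lower, from 2.01-fold for Col5a3 to 18.5-fold for Col1a1. Their footprints were also lower for 6 of 6. Per read of the 8 genes there were 8.41 fibrillar collagen reads (7.50 to 9.46) in mRNA without treatment and 0.595 (0.578 to 0.612) with it. In footprints the same quotient was 2.14 (2.12 to 2.17) untreated and 0.245 (0.235 to 0.255) treated. Col3a1, Col1a2, Col1a1 and Col5a2, the chains with the most reads, had translation efficiencies 2.67-fold (2.41 to 2.95), 1.62-fold (1.43 to 1.83), 1.07-fold (0.947 to 1.20) and 1.46-fold (1.15 to 1.86) lower, so the first and second were called. Both listed chains of collagen VI, a microfibrillar collagen next to the basement membrane, were lower in mRNA and footprints. Col6a2 footprints were 4.36-fold (3.96 to 4.80) and Col6a1 footprints 3.14-fold (2.84 to 3.47) lower.

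Other basement membrane genes, the partners of Hspg2 and Nid1, had median log2 ratios of 0.05 in mRNA and −0.88 in footprints. Of 8 listed, 2 were higher and 1 lower in mRNA, 5 were lower in footprints and 7 lower in translation efficiency. The laminin chain genes Lama2 and Lamc1 were 3.91-fold (2.52 to 6.41) and 3.09-fold (1.99 to 5.07) higher in mRNA. Their footprints were 1.46-fold (1.34 to 1.59) and 1.36-fold (1.26 to 1.47) lower, under the threshold. Col4a1, a chain of type IV collagen, was 1.32-fold lower in mRNA (1.06 to 1.63), under the threshold, and 1.87-fold lower in footprints (1.71 to 2.05). Sparc, a collagen-binding matricellular gene, was lower in both, by 1.93-fold (1.41 to 2.58) and 3.87-fold (3.61 to 4.15).

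Among the proteoglycan relatives of Dcn and Lum only Bgn, which encodes biglycan, was listed of 10. It was 2.57-fold lower in mRNA (1.83 to 3.53) and 3.79-fold lower in footprints (3.48 to 4.14). Of 16 other elastic and microfibril genes, the relatives of Fbn1, 0 were listed. Of 5 listed matricellular and adhesive glycoproteins 3 were lower and 0 higher in footprints. Fstl1 footprints were 4.56-fold (3.97 to 5.27) and those of Cilp, a cartilage intermediate layer protein, 2.62-fold (2.40 to 2.87) lower. Tnxb, which encodes tenascin-X, and Sparcl1 were 3.03-fold (1.97 to 4.91) and 2.73-fold (1.62 to 5.01) higher in mRNA with footprint ratios 1.02-fold (0.940 to 1.11) and 1.04-fold (0.951 to 1.13) lower, which were not called.

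Collagen processing genes had lower footprints for 3 of 3 listed. P4hb, a subunit of collagen prolyl hydroxylase, was 2.31-fold (2.03 to 2.63), Pcolce, a procollagen protease enhancer, 3.08-fold (2.65 to 3.60), and Serpinh1, the collagen chaperone, 2.85-fold lower (2.37 to 3.43). In mRNA P4hb was 1.65-fold higher (1.06 to 2.72) and Pcolce 2.73-fold lower (1.60 to 4.42). Serpinh1 mRNA, 1.32-fold lower (0.709 to 2.26), was not called. P4hb thus had the same pair of calls as Hspg2, Nid1, Fbn1 and Mmp2. Of the 3 listed matrix receptors 0 were called in footprints. Dag1, the dystroglycan gene, and Itgb1, the integrin beta-1 gene, were 3.90-fold (2.39 to 6.84) and 1.65-fold (1.18 to 2.38) higher in mRNA, and Itga7, the muscle laminin receptor, had a ratio 1.19-fold lower (0.768 to 1.76). The mRNA ratios of Itgb1 and P4hb change direction with the authors' constants.

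Of 14 fibroblast markers 4 were listed (Gsn, Vim, S100a6 and Igfbp5), and Pdgfra, Pdgfrb and Dpt were not among the listed genes. The 4 did not move together, with a median of −0.06 for the log2 mRNA ratio and 0.20 for that of footprints. Their summed scaled level was 1379 CPM in untreated and 2705 in treated mRNA, and 3960.3 and 5213 in the footprint libraries. In mRNA Gsn held most of that sum, at 728 and 2274 CPM, and was called higher. Vim was at 345 and 261, Igfbp5 at 108 and 132, both not called, and S100a6, at 198 and 37.0, was called lower. In footprints Igfbp5 alone was called, as higher. Of 14 macrophage markers 4 were listed, all called lower in both readouts, with a summed level of 996 and 208 in mRNA and 1228 and 563 in footprints. Translation efficiency was called higher for 3 and lower for 0 of the macrophage markers. For the fibroblast markers it was called higher for 2 and lower for 1. Endothelial and smooth muscle markers had 2 of 12 listed, with sums of 536 and 384 in mRNA and 3377 and 2698 in footprints that were mostly Acta2. Acta2, the smooth muscle actin gene, was 1.62-fold lower in mRNA (1.25 to 2.08), and its footprints were 1.33-fold lower (1.28 to 1.37), not called. Fabp4, a fatty acid binding protein gene, had footprints 4.34-fold higher (3.55 to 5.34), at 41.7 and 181 CPM, and an mRNA ratio of 1.18 (0.707 to 2.13), not called. Translation efficiency was called higher for Fabp4 and was not called for Acta2. Tendon markers had 0 of 8 listed. The 11 listed muscle fibre markers had summed levels of 313946 and 681625 CPM in mRNA and 360795 and 416614 in footprints. Of these markers 5 were called higher and 1 lower in mRNA, and 3 higher and 2 lower in footprints. Translation efficiency was called lower for 6 and higher for 2 of the 11. The part of these cells in the values of the 8 genes was not tested.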

How the data were processed

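Tibialis anterior mRNA and ribosome footprints were sequenced in 1 library each from untreated and vector-treated Dmd Dup2 mice. Per the labels' protocols, muscle was homogenised with cycloheximide, and the mRNA kit keeps strand while footprints went through a small RNA kit. The submitters' processing notes name Trimmomatic, STAR, edgeR and mm9, without roles or versions. No counting tool or rule for multiply mapped reads is given in the sources used here. Per the file headers the deposited table of 1000 genes gives read counts and normalized read counts. In 100% of genes the deposited normalized value is, within 0.1, the count multiplied by a constant of that library and these values were read as CPM, a scale inferred from the values. The table's genes are ordered by untreated mRNA count, from high to low, down to 14. All 8 RefSeq identifiers carry the same symbol in RefSeq's GRCm38.p6 gene table.

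Raw counts were scaled by TMM (edgeR 4.0.16, R 4.3.3) over the listed genes. Ratios have exact conditional binomial 95% intervals (scipy 1.17.1). Translation efficiency used 0.5 added to each count and a normal interval on the log scale, as did ratios of ratios between genes, with nothing added there. Ratio, interval and call code was tested on simulated counts. No molecular identifiers are named in the labels, and intervals cover counting error only. Alternatives were scaling by the listed total, by upper quartile, by DESeq2 (1.42.0), by the authors' constants and by the total that leaves out the 20 most abundant genes, other minimums, a 2-fold threshold and 5 added to each count. The 8 genes and the gene lists were chosen with earlier results of these data known. All 8 were named, as were up to 4 genes of each list with the most summed reads and the 10 genes nearest in pattern.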

Additional observations from a re-analysis of the deposited data

How the results depend on the processing

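With the listed totals the median gene shifted from its TMM value by −0.65 log2 units in mRNA and 0.61 in translation efficiency. Upper quartile scaling shifted the mRNA value by −0.40, that of footprints by −0.12 and that of translation efficiency by 0.28. Leaving the 20 most abundant genes out of the total shifted it by −0.25 in mRNA and 0.30 in translation efficiency. The authors' constants shifted it by −0.88, −0.27 and 0.61 in mRNA, footprints and translation efficiency.

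Of the 8 genes, 5 were higher in mRNA, and this became 2 (listed totals), 3 (upper quartile), 3 (without the top 20), 1 (authors' constants) or 3 (2-fold). Lower mRNA went from 0 to 1 (listed totals) or 2 (authors' constants). The log2 mRNA ratios of Nid1 and Hspg2 turned to −0.088 and −0.22 with the authors' constants. In footprints 6 lower became 3 (2-fold), and 0 higher became 1 (without the top 20). In translation efficiency 8 lower became 5 (listed totals) or 5 (authors' constants).

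Over all genes, 317 higher in mRNA became 148 (listed totals), 205 (upper quartile) or 110 (authors' constants). The 247 lower became 464 (listed totals), 543 (authors' constants) or 160 (minimum of 200 reads). In footprints 199 higher became 114 (authors' constants) or 81 (2-fold), and 262 lower became 143 (2-fold). In translation efficiency 259 higher became 444 (listed totals) or 444 (authors' constants), and 317 lower became 157 or 158. Higher genes made up 56.2% (TMM), 24.2% (listed totals), 43.7% (without the top 20), 35.7% (upper quartile) and 16.8% (authors' constants) of mRNA calls. The footprint share was 43.2% with TMM and 23.8% with the authors' constants. In translation efficiency it was 44.97%, 73.9%, 60.7%, 59.97% and 73.8% in the order given for mRNA.

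The cause of these differences was not tested. No paired analysis was possible because each group has 1 library, and no replicate was left out for the same reason. The 329 reads of the 8 genes in untreated mRNA limit the precision of every mRNA ratio.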

Other observations

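Genes outside the matrix lists also had ratios near the median pair of the 8 genes. That pair does not describe each of the 8. Fn1 had log2 ratios of −0.005 in mRNA and −2.20 in footprints, and Dcn had 1.60 and 0.54. The 10 other genes whose pair of log2 ratios lay nearest to the median pair of the 8 genes (0.73 in mRNA and −0.77 in footprints), by Euclidean distance over the 2 ratios, were Rpl26, Nedd4, Etf1, Ndufb8, Slc25a4, Glrx3, Gyg, Mybpc2, Igf2r and Rpl37a. None of the 10 is in the fixed lists of matrix genes. Those lists hold only 28 of the 1000 genes, so this absence was likely beforehand and tells little about matrix genes. Rpl26, a ribosomal protein gene, was nearest at a distance of 0.0155, with log2 ratios of 0.73 in mRNA and −0.78 in footprints. Mybpc2, the fast myosin-binding protein C gene, had 0.93 and −0.81, and Slc25a4, a mitochondrial adenine nucleotide carrier, had 0.86 and −0.66.

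Mgp had the opposite order of readouts to the 8 genes. It had 24 and 96 mRNA reads and 537 and 139 footprints, untreated and treated. It was 5.39-fold lower in mRNA (3.29 to 8.50) and 1.87-fold lower in footprints (1.55 to 2.27), and its translation efficiency ratio was 2.94 (1.82 to 4.76).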
